A study of Mus musculus with 14 samples.

Results

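Expression of neutrophil granule and myeloid genes was followed in mouse liver from weaning to young adulthood. The set held 10 genes chosen by name, Elane, Mpo, Ctsg, Prtn3, Camp, Ltf, Ngp, S100a8, S100a9 and Chil3, of the 19,751 genes that were named through the RefSeq accessions of the array probes. All 10 were on the array. Camp had 2 probes, and every other gene had 1. The study compared male (M) and female (F) liver of CD-1 mice, an outbred stock, at ages of 3, 4 and 8 wk, to find genes that change with age or differ between the sexes, and the labels give no treatment or altered allele for any group. Each of the 6 groups (M3, F3, M4, F4, M8 and F8) had 2 pools of liver RNA, with 5 mice per pool at 3 wk and 6 mice per pool at 4 and 8 wk. The sexes were set against each other at each age (M3/F3, M4/F4 and M8/F8) and 8 wk against each younger age (M8/M3 and F8/F3, then M8/M4 and F8/F4), with 2 dye-exchanged Agilent arrays of separate pools in each of the 7 comparisons. A pool averages its mice, so the spread between single animals was not measured. The sources used here do not say whether blood was removed from the livers.

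Neutrophils are short-lived white blood cells that carry their weapons in granules. The granule proteins are made in sequence while the cell matures: the enzymes of the primary granules come at the promyelocyte stage, the proteins of the secondary granules follow later, and the mature cell largely stops making them. The liver is a site of blood formation in the fetus and loses this role in the period after birth, and afterwards it holds circulating neutrophils and resident macrophages (Kupffer cells). In pooled tissue RNA, fewer cells of a type and less RNA per cell cannot be told apart.

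Several of these genes are neighbours on the chromosome. Prtn3 and Elane lie 3137 bases apart on chromosome 10, S100a8 and S100a9 lie 22595 bases apart on chromosome 3, and Camp, Ngp and Ltf all lie on chromosome 9. The 250 bases before the start of 5 genes are shown, chosen as follows. Prtn3 and Elane are adjacent and their probes gave different array results. S100a8 and S100a9 had similar ratios across the arrays (Pearson's r = 0.98), although not all of their calls were the same. Ltf was called lower with age in all 4 age comparisons, as were Mpo, Prtn3, S100a8 and Chil3. The sequences are from RefSeq in build GRCm38.p6, each read 5′ to 3′ on the strand of its gene: Prtn3 chr10:79879417-79879666 (plus strand), Elane chr10:79886062-79886311 (plus), S100a8 chr3:90668821-90669070 (plus), S100a9 chr3:90695722-90695971 (minus) and Ltf chr9:111019042-111019291 (plus). Capitals mark GAGGAA, the core bound by PU.1 and other ETS factors of myeloid cells, and TTNNGNAA, a pattern of the C/EBP type, each searched on both strands.
Prtn3: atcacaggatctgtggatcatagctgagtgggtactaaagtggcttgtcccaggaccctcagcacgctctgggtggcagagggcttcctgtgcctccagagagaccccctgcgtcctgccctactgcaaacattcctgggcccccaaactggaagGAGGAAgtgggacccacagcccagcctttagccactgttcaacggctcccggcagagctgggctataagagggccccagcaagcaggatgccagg
Elane: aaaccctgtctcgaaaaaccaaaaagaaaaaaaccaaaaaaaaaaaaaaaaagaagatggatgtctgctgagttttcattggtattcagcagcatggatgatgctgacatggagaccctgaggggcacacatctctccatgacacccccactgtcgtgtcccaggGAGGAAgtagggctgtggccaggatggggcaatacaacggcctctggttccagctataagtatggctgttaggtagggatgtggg
S100a8: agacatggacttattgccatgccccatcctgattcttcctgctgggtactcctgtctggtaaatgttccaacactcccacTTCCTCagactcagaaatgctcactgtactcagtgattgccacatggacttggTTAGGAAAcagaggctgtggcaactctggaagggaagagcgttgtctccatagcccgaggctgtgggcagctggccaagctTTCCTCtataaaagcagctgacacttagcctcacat
S100a9: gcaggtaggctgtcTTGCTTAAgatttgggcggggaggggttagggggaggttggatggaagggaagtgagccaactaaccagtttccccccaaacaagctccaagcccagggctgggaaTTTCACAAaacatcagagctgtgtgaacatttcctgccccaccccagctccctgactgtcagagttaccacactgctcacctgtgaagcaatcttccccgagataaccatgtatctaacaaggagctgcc
Ltf: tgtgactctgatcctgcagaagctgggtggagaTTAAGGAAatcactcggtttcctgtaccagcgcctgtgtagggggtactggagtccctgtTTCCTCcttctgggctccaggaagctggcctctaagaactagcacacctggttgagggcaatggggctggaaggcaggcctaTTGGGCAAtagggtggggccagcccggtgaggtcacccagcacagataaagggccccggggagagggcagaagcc

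GAGGAA on either strand was in the window of 6 of the 10 genes and in 23.3% of all 32,851 mouse windows of this length. TTNNGNAA was in the windows of 5 of the 10 genes and in 36.8% of all windows. The windows of the primary granule genes Prtn3 and Elane each held 1 GAGGAA and no TTNNGNAA. A core of the Runx type (TGTGGT) was in 2 of the 10 windows and in 14% of all, and one of the Myb type (AACNG) was in 10 of 10 and in 74.2% of all. These matches describe letters in a window and show no binding.

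The values used are log2 expression ratios. A ratio was called when its adjusted p (limma, Benjamini-Hochberg over all probes and the 7 comparisons) was below 0.05, the change was over 1.5-fold, and either group was well above background on both of the arrays. Well above background is the scanner software's mark for a spot whose raw signal stands above nearly all of the background signals, and 55.2% to 77.2% of the spots per channel had it. No spot was saturated. The arrays fall into 2 scan days, assigned by slide: slides 1 and 2 are day 1, and slides 3 and 4 are day 2. M8/M3 and the sex comparisons are of day 1, and M8/M4 and the age comparisons of female liver of day 2. Scan day, slide set and comparison therefore cannot be told apart. Xist was lower and Ddx3y, Uty and Eif2s3y were higher in male pools in all 3 sex comparisons, as the labels require. Albumin (Alb), the main hepatocyte product, was well above background in 28 of 28 channels.

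From 3 to 8 wk, 9 of the 10 genes were called lower in male liver and 9 of 10 in female liver, all but Elane in both sexes. None was called higher. Over all probes tested, 8.56% were called lower and 8.24% higher in M8/M3, and 5.52% were lower and 5.31% higher in F8/F3. With both groups required to be well above background, 6 genes were called lower in M8/M3 and 8 in F8/F3. The median log2 ratio of the 10 genes was -2.06 in M8/M3 (-1.86 with Ngp, which was near background in M8, at its bound) and -2.64 in F8/F3, where the medians over all probes tested were 0.02 and 0.02. From 4 to 8 wk, 5 genes were called lower in male liver (Mpo, Prtn3, Ltf, S100a8 and Chil3), against 5.43% of all probes. In female liver these 5, with Ngp and S100a9, were lower from 4 to 8 wk, against 2.98% of all probes. Both groups were well above background for 4 of the 5 in male and 6 of these 7 in female liver. At 3 wk, 5 genes were lower in male than in female liver (Camp, Ltf, Ngp, S100a8 and S100a9), against 0.296% of all probes, and at 4 wk 2 were (S100a8 and S100a9), against 0.889%. With p-values adjusted within M3/F3 alone the count at 3 wk was 1 (S100a8, adjusted p = 0.0146). At 8 wk, 1 gene was lower in male liver (Chil3), against 3.49% of all probes, and the count was 0 with the slide as a block, after normexp and loess, or without certain single arrays. The comparisons share pools, so their counts do not add up as separate evidence.

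**Figure D1:**
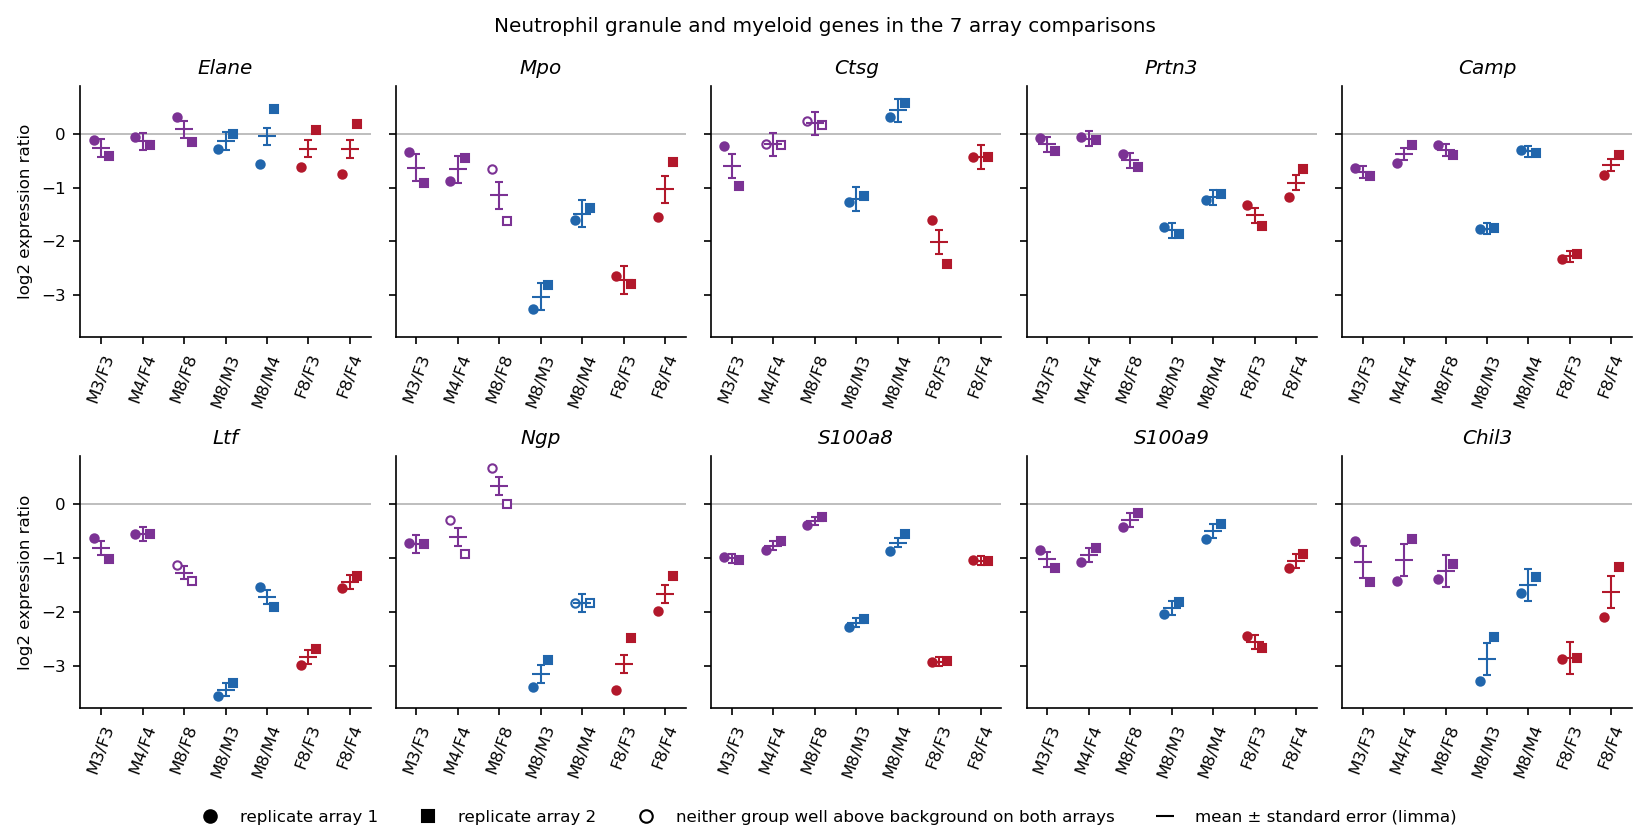
Log2 expression ratio (vertical axis) of each of the 10 genes in the 7 comparisons (horizontal axis): circles and squares are the 2 replicate arrays, open where neither group was well above background on both arrays, and bars are the mean ± standard error from limma. In M8/M3 and F8/F3 the 9 genes other than Elane lie between -1.21 and -3.44, and Elane lies at -0.14 and -0.28. Ngp in M8/M3 is drawn at its ratio although M8 was near background there.

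Mpo encodes myeloperoxidase, which makes hypochlorous acid in the primary granule. Its log2 ratio was -3.26 and -2.80 on the M8/M3 arrays, and -2.65 and -2.78 on the F8/F3 arrays. All 4 arrays thus lay far below 0, with means of -3.03 in male liver (SE 0.25, adjusted p = 0.000687) and -2.71 in female liver (SE 0.25, adjusted p = 0.00100). The M8 pool was well above background on only 1 of the 2 arrays of M8/M3. In M8/M4 the M8 pools were near background on both arrays, so the change is a bound, at least 1.35-fold lower. Here and below, the adjusted p given with a bound is that of the deposited ratio and does not test the bound. For Mpo in M8/M4 that p was 0.00973, and the ratio was called. This call was lost without either M8/M4 array (adjusted p = 0.0612 and 0.0894) and after normexp and loess, another background correction and normalization (adjusted p = 0.289). In female liver the 4 to 8 wk ratios were -1.54 and -0.53, with a mean of -1.03 and an adjusted p of 0.0376 that was 0.0549 without replicate 2 and 0.323 without replicate 1. It was 0.0590 with the replicate number as a block, and the call was also lost with the slide as a block, with shared pools in the covariance, with no dye term and after normexp and loess (adjusted p = 0.0674 to 0.296).

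Prtn3 encodes proteinase 3, a serine protease of the primary granule and the chromosomal neighbour of Elane. It was well above background on every array. The log2 ratios were -1.73 and -1.86 in M8/M3 and -1.32 and -1.71 in F8/F3, which do not span 0. Prtn3 was 3.47-fold lower in M8 than in M3 (adjusted p = 0.000532) and 2.85-fold lower in F8 than in F3 (adjusted p = 0.000977). It was also lower from 4 to 8 wk, by 2.26-fold in male liver (adjusted p = 0.00243) and by 1.89-fold in female liver (adjusted p = 0.00640), and the latter call was lost without F8/F4 replicate 1 (adjusted p = 0.0648). No sex comparison was called for Prtn3. Its M8/F8 ratio was -0.50 (SE 0.14, adjusted p = 0.0601).

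Ctsg encodes cathepsin G, a further serine protease of the primary granule. The log2 ratios were -1.27 and -1.16 in M8/M3 and -1.61 and -2.41 in F8/F3. Ctsg was 2.32-fold lower in M8 than in M3 (adjusted p = 0.0116) and 4.02-fold lower in F8 than in F3 (adjusted p = 0.00168). After normexp and loess Ctsg was at -0.40 in M8/M3 and not called (adjusted p = 0.150). Unlike Prtn3 and Mpo it was not called from 4 to 8 wk: the ratio was 0.43 in M8/M4 (SE 0.22, adjusted p = 0.267) and -0.44 in F8/F4 (SE 0.22, adjusted p = 0.264). The male 3 to 8 wk call was lost without either of its own arrays (adjusted p = 0.0915 without replicate 1 and 0.0795 without replicate 2).

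Elane encodes neutrophil elastase, the best known serine protease of the primary granule, and its probe behaved unlike the others. Its log2 ratios were -0.28 and 0.00 on the M8/M3 arrays and -0.63 and 0.07 on the F8/F3 arrays, and no comparison was called. The means were -0.14 (SE 0.16, adjusted p = 0.736) and -0.28 (SE 0.16, adjusted p = 0.348). The processed signal of its probe was 76.2 to 333 (median 158) in the 16 channels scanned on day 1 and 457 to 859 (median 682) in the 12 channels scanned on day 2. The ranges of the 2 days do not overlap. M3 had channels of day 1 alone. In the 8 wk groups, the median signal on day 2 was 4.71 times that on day 1 in F8 and 3.15 times in M8, while the other 9 genes had values of 0.421 to 2.55. Scan day, and with it the slide set, thus moved with the signal of this probe, and its part in the ratios was not tested. Whether this probe reports Elane mRNA was not tested either, so the values are those of the probe. The dye term was 0.27 on the log2 scale for Elane, 0.25 for Ngp, 0.19 for Mpo and 0.13 for Chil3. Each comparison held both dye orientations and the fit had a dye term, so this term drops out of the mean ratios.

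**Figure D2:**
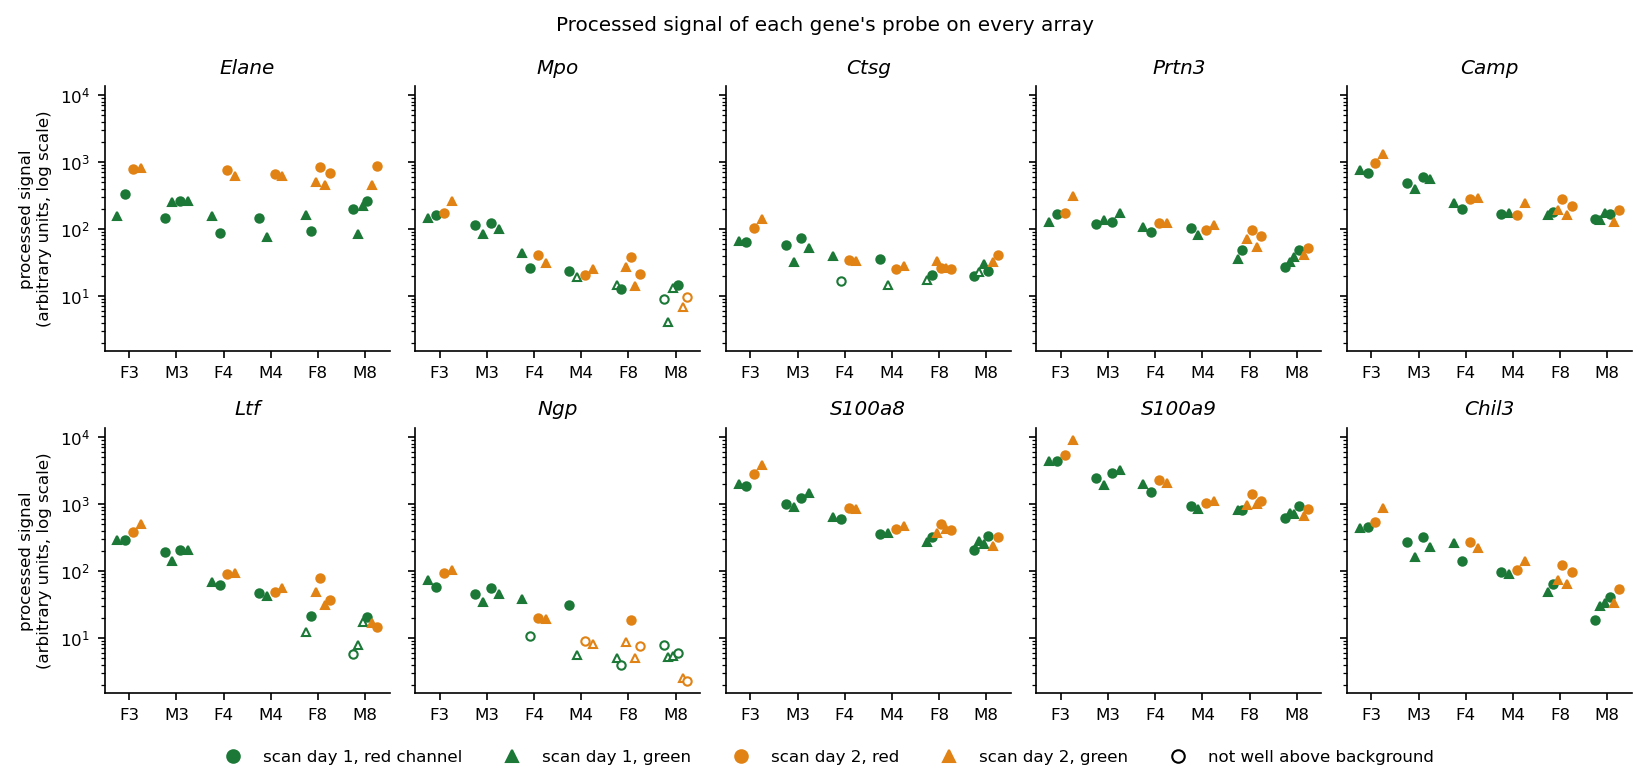
Processed signal of each gene's probe (vertical axis, arbitrary units, log scale) in the 6 groups (horizontal axis), with 1 point for each channel of each array. Colour gives the scan day, shape the dye channel, and open points were not well above background. Elane is split by scan day, and Ngp, Mpo and Ltf reach background at 8 wk. Signals of different probes cannot be set against each other.

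Camp encodes the precursor of the antimicrobial peptide CRAMP, stored in secondary granules. Its log2 ratios were -1.78 and -1.74 in M8/M3 and -2.32 and -2.24 in F8/F3, with little spread between arrays. Camp was 3.39-fold lower in M8 than in M3 (adjusted p = 0.000249) and 4.85-fold lower in F8 than in F3 (adjusted p = 0.000125). The second Camp probe gave log2 ratios of -1.53 and -2.10 in these comparisons. The ratio from 4 to 8 wk was -0.33 in M8/M4 (SE 0.11, adjusted p = 0.0960) and -0.58 in F8/F4 (SE 0.11, adjusted p = 0.0134), of which the latter passed the p threshold but not the fold threshold.

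Ltf encodes lactoferrin, an iron-binding protein of the secondary granule. Its log2 ratios were -3.56 and -3.32 in M8/M3 and -2.99 and -2.69 in F8/F3. Ltf was 10.9-fold lower in M8 than in M3 (adjusted p = 7.19e-05), where the M8 pool was well above background on 1 of 2 arrays, and its log2 ratio was -1.25 after normexp and loess. It was 7.15-fold lower in F8 than in F3 (adjusted p = 0.000110), with a log2 ratio of -2.11 after normexp and loess. From 4 to 8 wk it was 3.30-fold lower in male liver (adjusted p = 0.000414) and 2.72-fold lower in female liver (adjusted p = 0.000773). After normexp and loess these calls stood with smaller log2 ratios, -0.69 in male and -0.83 in female liver.

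Ngp encodes neutrophilic granule protein, a member of the cystatin family stored in the secondary granule. It was the dimmest probe of the set. The M3 pools gave processed signals of 55.8 and 44.9 on the M8/M3 arrays, and the M8 pools gave 5.29 and 6.05, neither of them well above background. Ngp was at least 1.49-fold lower in M8 than in M3 (adjusted p = 0.000177). After normexp and loess the M8/M3 ratio was -0.57, under the fold threshold, and the call was lost. In female liver the F8 pool was well above background on 1 of 2 arrays, and the log2 ratios were -3.44 and -2.48, a mean of -2.96 (SE 0.17, adjusted p = 0.000205). Ngp was at least 1.27-fold lower in F8 than in F4 (adjusted p = 0.00138), a call lost after normexp and loess (adjusted p = 0.114), and in M8/M4 neither group was well above background on either array, so no fold is given.

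S100a8 and S100a9 encode the subunits of calprotectin, the abundant calcium-binding protein of the neutrophil cytosol. They were the brightest probes of the set. The S100a8 ratios were -2.27 and -2.13 in M8/M3 and -2.92 and -2.92 in F8/F3, and those of S100a9 were -2.04 and -1.81 and then -2.45 and -2.67. S100a8 was 4.59-fold lower in M8 than in M3 (adjusted p = 7.42e-05) and 7.57-fold lower in F8 than in F3 (adjusted p = 5.37e-05). S100a9 was 3.80-fold lower (adjusted p = 0.000350) and 5.90-fold lower (adjusted p = 0.000157). From 4 to 8 wk, S100a8 was 1.64-fold lower in male liver (adjusted p = 0.00205), a call lost without M8/M4 replicate 1, where it was -0.55 on the log2 scale and under the fold threshold. In female liver S100a8 was 2.07-fold and S100a9 2.09-fold lower from 4 to 8 wk (adjusted p = 0.000522 and 0.00290). The M8/M4 ratio of S100a9 was -0.50 (SE 0.13, adjusted p = 0.0476) and did not reach the fold threshold.

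Chil3 encodes the chitinase-like protein Ym1, made by neutrophil precursors and by some macrophages. Its log2 ratios were -3.27 and -2.47 in M8/M3 and -2.88 and -2.85 in F8/F3. It was 7.30-fold lower in M8 than in M3 (adjusted p = 0.00149) and 7.26-fold lower in F8 than in F3 (adjusted p = 0.00150). From 4 to 8 wk it was 2.82-fold lower in male liver (adjusted p = 0.0178) and 3.08-fold lower in female liver (adjusted p = 0.0132). The male call was lost without either M8/M4 array (adjusted p = 0.120 and 0.113) and after normexp and loess (adjusted p = 0.0753), and the female call without F8/F4 replicate 1 (adjusted p = 0.143).

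The dim genes set how firmly the folds can be read. At 8 wk, Ngp was well above background on 0 of 6 arrays in M8 and 1 of 6 in F8, Mpo on 1 and 5 of 6, Ltf on 3 and 5 of 6, and Ctsg on 5 and 5 of 6. Elane, Prtn3, Camp, S100a8, S100a9 and Chil3 were well above background on 6 of 6 arrays in both sexes. Already at 4 wk Ngp was well above background on 1 of 4 arrays in M4 and 3 of 4 in F4. When the raw intensities were corrected with normexp and loess in place of the deposited ratios, the M8/M3 ratios of the dim genes moved toward 0, to -1.03 for Mpo, -1.25 for Ltf, -0.57 for Ngp and -0.40 for Ctsg on the log2 scale. So did those of genes well above background on every 8 wk array, to -0.80 for Prtn3, -1.34 for Chil3 and -1.28 for Camp. The calls of Ctsg (adjusted p = 0.150) and Ngp (under the fold threshold, adjusted p = 0.0138) were lost. In F8/F3 all 9 calls stood under this correction, with -1.71 for Mpo, -1.22 for Ngp and -1.15 for Ctsg. S100a8 was then at -1.85 and -2.75 and S100a9 at -1.75 and -2.52 in M8/M3 and F8/F3.

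At 3 wk, 5 of the 10 genes were called lower in male than in female liver, against 0.296% of all probes. With p-values adjusted within M3/F3 alone the call of S100a8 stood, and those of S100a9 (adjusted p = 0.102), Camp (0.123), Ltf (0.123) and Ngp (0.274) were lost. In M3/F3 and in M4/F4 all 10 genes were below 0 on both replicate arrays, with medians of -0.73 and -0.58 where all probes had 0.00 and 0.00. In M4/F4, Ctsg and Ngp were well above background on only 1 of 2 arrays in each sex, so 8 genes were bright enough to be called. S100a8 had log2 ratios of -0.97 and -1.03 in M3/F3, and was 2.00-fold lower in male liver (adjusted p = 0.000608). S100a9 had -0.86 and -1.19, and was 2.04-fold lower (adjusted p = 0.00329). Both subunits of calprotectin were thus lower in the male pools on each array.

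Among the secondary granule genes at 3 wk, Camp was 1.64-fold lower in male liver (adjusted p = 0.00606), Ltf 1.76-fold (adjusted p = 0.00640) and Ngp 1.67-fold (adjusted p = 0.0303). The Ngp call was lost without M3/F3 replicate 1 (adjusted p = 0.264), with the slide as a block, with shared pools in the covariance, with 6 group means, with no dye term and after normexp and loess (adjusted p = 0.0505 to 0.236), and those of Camp and Ltf without replicate 2 (adjusted p = 0.0569 and 0.0664). Of the 4 primary granule genes none was called in M3/F3. Mpo had ratios of -0.35 and -0.92 (mean -0.64, SE 0.25, adjusted p = 0.162) and Ctsg -0.23 and -0.97 (mean -0.60, SE 0.22, adjusted p = 0.126), with a wide spread between the arrays. Chil3 had -0.69 and -1.45, a mean of -1.07 with an adjusted p of 0.0590. With 6 group means both Mpo (adjusted p = 0.0301) and Chil3 (adjusted p = 0.00759) were called and the count at 3 wk was 6, and with error-weighted averages both were called and it was 7. Over all probes the calls in M3/F3 were 105 in the main fit, 185 with 6 group means and 235 with error-weighted averages. With shared pools in the covariance Chil3 was called (adjusted p = 0.0420).

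At 4 wk, S100a8 had ratios of -0.85 and -0.69 and was 1.70-fold lower in male liver (adjusted p = 0.00156). S100a9 had -1.08 and -0.81 and was 1.92-fold lower (adjusted p = 0.00459), a call lost without M4/F4 replicate 1 (adjusted p = 0.0509). Ltf (-0.56, SE 0.12, adjusted p = 0.0276) passed the p threshold with a ratio of 1.47-fold, under the fold threshold. Chil3 had ratios of -1.42 and -0.65, a mean of -1.04 (SE 0.30, adjusted p = 0.0659) that was -0.43 without M4/F4 replicate 1 and -1.64 without replicate 2. Its adjusted p was 0.0472 with shared pools in the covariance and 0.00688 with 6 group means. With 6 group means Mpo and Ltf were called too, and 5 genes in all. Over all probes the calls then rose from 319 to 470.

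At 8 wk, S100a8 was at -0.39 and -0.23, a mean of -0.31 (SE 0.08, adjusted p = 0.0460) that is 1.24-fold and under the threshold, and S100a9 was at -0.30 (SE 0.13, adjusted p = 0.211). Chil3 had ratios of -1.39 and -1.11 and was 2.38-fold lower in male liver (adjusted p = 0.0347). That call was lost without either M8/F8 array (adjusted p = 0.257 and 0.0808), and its ratio was -0.58 after normexp and loess. Mpo was at least 1.18-fold and Ltf at least 1.21-fold lower in male liver (adjusted p = 0.0263 and 0.00119). For both, F8 was well above background on 1 of 2 arrays and M8 on none, so neither counts as called. Ngp was well above background in neither sex in M8/F8. Ctsg was well above background on 1 of 2 arrays in each sex there, so it could not be called either.

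The ratios of all 14 arrays were solved for the level of each pool, centred on the mean of the 6 groups. For 8 of the 10 genes the order was F3, M3, F4, M4, F8 and M8 from highest to lowest, that is, female above male at each age and younger above older. The exceptions were Elane and Ctsg. The lowest places of Ngp, Mpo and Ltf rest on groups near background, and the direct M8/F8 ratio of Ngp was 0.34 with neither sex well above background, so its order at 8 wk was not measured. F3 was the highest group for all 10 genes. S100a8 had levels of 1.92 and 1.93 in the F3 pools, 0.91 and 0.90 in M3, 0.15 and 0.05 in F4, -0.61 and -0.65 in M4, -0.96 and -0.997 in F8, and -1.40 and -1.22 in M8, so that no neighbouring groups overlapped. Camp, Ltf and S100a9 also had no overlap between neighbours. Pools of neighbouring groups overlapped for Mpo between M4 and F8, for Prtn3 between F3 and M3 and between F4 and M4, for Ngp between F8 and M8, and for Chil3 between M3 and F4. For Ctsg the overlaps were between F4 and M8 and between F8 and M4, and for Elane between all neighbours. The range of the solved group means, groups near background included, was 1.98 for Prtn3 to 4.12 for Ltf among the 9 genes and 0.33 for Elane.

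**Figure D3:**
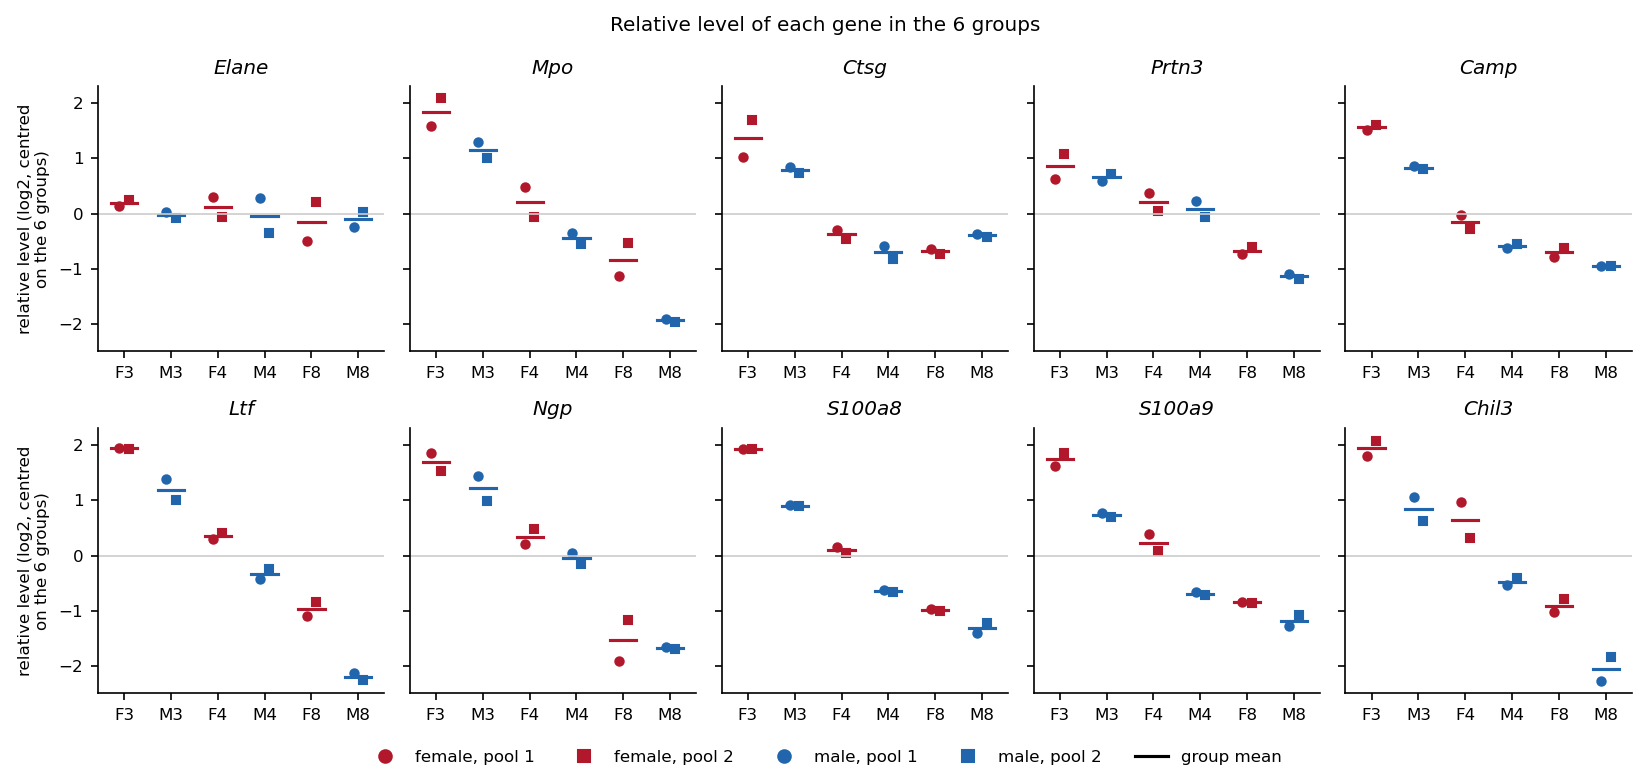
Relative level of each gene (vertical axis, log2, centred on the mean of the 6 groups) in the 2 pools of each group (horizontal axis), solved from the ratios of all 14 arrays: circles are pool 1, squares pool 2, and lines the group mean. F3 is highest in every panel, and the levels of 8 genes step down from F3 to M8 in the same order, with groups near background drawn as solved. For Ngp, 1 of these 8, the order of F8 and M8 was not measured.

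Where between 3 and 4 wk the levels moved was read through the shared 8 wk pools, since 3 and 4 wk were not hybridized to each other. Through M8, 4 genes were lower in M4 than in M3 (Camp, Ltf, S100a8 and S100a9), against 0.132% of all probes. Through F8, 2 were lower in F4 than in F3 (Camp and S100a8), against 0.0572%. These counts rest on few arrays: the first was 1 or 2 when any array was left out, and the second was 0 without either array of M3/F3 or of M8/M3. The 2 counts were 3 and 2 with the replicate number as a block, 1 and 0 with the slide as a block, and 1 and 3 after normexp and loess. They were 6 and 5 with shared pools in the covariance, and both were 7 with 6 group means in place of 7 comparisons. Over all probes the calls rose too, from 61 and 24 to 362 and 158 with shared pools and to 585 and 355 with 6 group means. The log2 difference of S100a8 was -1.48 in male liver (SE 0.11, adjusted p = 0.0168) and -1.87 in female liver (SE 0.11, adjusted p = 0.0166). Camp differed by -1.43 (SE 0.15, adjusted p = 0.0274) and -1.70 (SE 0.15, adjusted p = 0.0293). For Camp the step from 3 to 4 wk was thus larger than that from 4 to 8 wk in both sexes, -0.33 and -0.58, and these steps were not tested against each other. For Prtn3 the 3 to 4 wk difference was -0.62 in male and -0.60 in female liver (adjusted p = 0.248 and 0.353), and its called change lay between 4 and 8 wk.

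The sexes were then compared in the size of their change. From 3 to 8 wk, 1 gene had a called interaction of sex and age, S100a8, where M8/M3 minus F8/F3 was 0.72 (SE 0.11, adjusted p = 0.0213), a larger drop in female liver. M8/M3 was scanned on day 1 and F8/F3 on day 2, so scan day and sex cannot be told apart in this contrast. Over all probes, 1.67% were called higher and 1.55% lower in this contrast. S100a9 had 0.63 (SE 0.19, adjusted p = 0.125) and Camp 0.52 (SE 0.15, adjusted p = 0.126), while Ltf had -0.60 (SE 0.18, adjusted p = 0.124). Over 26 alternative settings the Ltf value ran from -0.68 to 0.86, so its sign depended on the setting. The same S100a8 contrast taken from the sex comparisons of day 1, M8/F8 minus M3/F3, was 0.69. The call was lost without any 1 of the 4 arrays of the contrast, with adjusted p of 0.0796 and 0.110 without M8/M3 replicate 1 and 2 and of 0.1002 and 0.103 without F8/F3 replicate 1 and 2. From 4 to 8 wk no gene had a called interaction by limma, with 3 at an unadjusted p below 0.05, against 0.801% of all probes higher and 0.543% lower.

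The ratios of the genes across the 14 arrays describe how alike they were. Among the 36 pairs of the 9 genes other than Elane, Pearson's r was 0.54 to 0.98 with a median of 0.834, and S100a8 and S100a9 had 0.98. The 9 pairs with Elane had 0.081 to 0.332 with a median of 0.236. The arrays share pools and differ by age contrast, so these values follow the age comparisons and carry no test. Among 3,883 probes of other genes that were called in an age comparison and bright enough, those most like the mean of Elane, Mpo, Ctsg and Prtn3 were Slc25a4 (r = 0.935), Wdr75 (0.930), Nip7 (0.930), Ppbp (0.929), Slc7a1 (0.921), Tmem40 (0.919), Epdr1 (0.914), Spata5 (0.913), Gpc3 (0.910) and Mapk13 (0.906). Ppbp, a chemokine of platelets, had log2 ratios from 3 to 8 wk of -2.21 in male and -2.08 in female liver. Those of Gpc3, a glypican of fetal liver, were -3.27 and -2.81. In M3/F3 they were at 0.05 and -0.17, where the 4 primary granule genes were at -0.64 to -0.20 and none was called.

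Lists of other cell types and stages give the setting. The RNA is of whole liver, so a list gene may also be expressed by other liver cells, and the source of each signal was not tested. A list median is thus not a measure of the named cells alone. Where an 8 wk group was near background on both arrays, the change of a list gene is given as a bound. The adjusted p beside it is that of the deposited ratio and does not test the bound. Of 8 further primary granule genes, 1 was lower in M8/M3, Ms4a3 (at least 1.13-fold, adjusted p = 0.00102). In F8/F3, Ms4a3 (-1.78) and Fcnb (at least 1.12-fold, adjusted p = 0.0331) were lower and Ctsc, the protease that activates granule serine proteases, was higher (0.95). The list medians were -0.08 and 0.00. The list includes Ctsc and Srgn, and its summed signal was 8846 to 17070 in F3, 8491 to 12910 in M3, 17150 to 28320 in F8 and 8971 to 12300 in M8.

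Of 11 further secondary and tertiary granule genes, 2 were lower in M8/M3, Pglyrp1 (at least 1.26-fold, adjusted p = 0.000919), a peptidoglycan-binding protein, and Mmp8 (at least 1.11-fold, adjusted p = 0.00561), neutrophil collagenase. In F8/F3, Pglyrp1 (-1.21), Mmp8 (at least 1.31-fold, adjusted p = 0.000725) and Itgb2l (at least 1.21-fold, adjusted p = 0.00100) were lower, and the list medians were -0.20 and -0.50. This list was drawn up with Hp, Lyz2, Cybb and Cyba among its genes. Its summed signal was 89470 to 196200 in F3, 66890 to 145000 in M3, 86740 to 175800 in F8 and 90030 to 152900 in M8. Of 12 genes of the mature neutrophil surface, 3 were lower in M8/M3, the resistin-like Retnlg (-1.15) and the formyl peptide receptors Fpr2 (-0.75) and Fpr1 (-0.67), and 1 in F8/F3 (Retnlg, -1.63). Retnlg was also lower in M3/F3 (-0.72, SE 0.18, adjusted p = 0.0460). Their medians were -0.02 and -0.34. In M8/M3, 5 of the 8, 8 of the 11 and 9 of the 12 genes of these lists were bright enough to be called, against 10 of 10 above. With genes near background at their bounds the medians were -0.12 and -0.16 for the secondary and tertiary granule list and -0.01 and -0.23 for the mature neutrophil list.

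Of 8 myeloid transcription factors, 2 were lower in M8/M3, Myb (at least 1.603-fold, adjusted p = 0.00117), a factor of blood precursors, and Cebpe (at least 1.15-fold, adjusted p = 0.00317), a factor needed for secondary granules. In F8/F3, Myb (-3.10), Cebpe (at least 1.67-fold, adjusted p = 0.00281) and Gfi1 (at least 1.22-fold, adjusted p = 0.0475) were lower. The medians of the list were -0.30 and -0.33 (-0.07 and -0.21 with genes near background at their bounds). The list includes Cebpa and Cebpd. Its summed signal was 4150 to 7466 in F3, 3955 to 6465 in M3, 6584 to 9444 in F8 and 5796 to 8144 in M8, with mean signals of 31.9 for Myb and 15.6 for Cebpe. Of 8 eosinophil, basophil and mast cell genes, the eosinophil granule genes Prg2 and Epx were lower in M8/M3 (Prg2 -2.61, Epx at least 1.13-fold, adjusted p = 0.00625). In F8/F3, Prg2 (-2.37), Epx (at least 1.94-fold, adjusted p = 0.000842) and the basophil protease Mcpt8 (at least 1.41-fold, adjusted p = 0.0101) were lower. Prg2 (-1.14, SE 0.25, adjusted p = 0.0254) and Epx (-1.56, SE 0.28, adjusted p = 0.0118) were also lower in M3/F3. The summed signal of this list was 313 to 589 in F3, 161 to 267 in M3, 58.4 to 176 in F8 and 52.3 to 154 in M8, and 5 of the 8 genes were well above background on no array at 8 wk in either sex.

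Some genes of other blood lineages were also called lower with age. Of 11 erythroid genes, 6 were lower and 1 higher in M8/M3 and 7 were lower in F8/F3, with medians of -1.70 and -1.61 (-0.44 and -0.87 with genes near background at their bounds). They included Gata1, the erythroid transcription factor (at least 1.496-fold in M8/M3 and 1.97-fold in F8/F3, adjusted p = 7.19e-05 and 0.000146). The gene that was higher in M8/M3 was Alas2 (1.37), the erythroid enzyme of haem synthesis. Of 5 megakaryocyte and platelet genes, 3 were lower in both, Ppbp, Pf4 (-1.63 and -1.48) and Gp9 (-1.38 and -1.43). No erythroid or platelet gene was called in M3/F3, where the list medians were -0.09 and 0.06.

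All 8 proliferation genes were lower in both age comparisons, with medians of -3.93 and -3.46. They included the mitotic genes Bub1 (-4.71 and -4.28) and Cdc20 (-4.05 and -3.44), and Aurkb, which was at least 1.97-fold and 2.97-fold lower (adjusted p = 0.000295 and 0.000397). In M3/F3 their median was 0.41, opposite in sign to the 10 genes, and none of them was called, although Cdk1 passed the p threshold (adjusted p = 0.0238).

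The remaining lists had at most 2 genes called lower in either comparison of 3 with 8 wk. Of 10 Kupffer cell genes, 2 were lower in M8/M3, the scavenger receptor Marco (-2.20) and the macrophage marker Adgre1 (-0.86), and 1 in F8/F3 (Marco, -1.58). In M8/F8, 5 of them were lower, Marco (-1.05), Timd4 (-0.67), Adgre1 (-0.65), Clec4f (-0.59) and C1qa (-0.59), and in M3/F3 none. Their summed signal was 27100 to 49680 in F3, 21910 to 35680 in M3, 29000 to 43870 in F8 and 18160 to 26330 in M8. Of 4 monocyte genes, 1 was lower in M8/M3 (Cx3cr1, -1.79) and 2 in F8/F3 (Cx3cr1, -1.66, and F13a1, -1.62). Of 5 progenitor genes, 1 was higher in M8/M3 (Flt3, 0.69) and 1 lower in F8/F3 (Cd34, -0.94). Of 9 B lineage genes, 1 was lower (Vpreb3, -1.15) and 1 higher (Blnk, 0.92) in M8/M3, and in F8/F3 Vpreb3 (-0.88) and Vpreb1 (-0.64) were lower and Blnk (0.81) higher. Of 7 T cell genes, 2 were lower in M8/M3 (Cd3g, -0.75, and Cd8a, -0.64) and none in F8/F3. Of 8 hepatocyte genes, 1 was lower (Alb, -0.71) and 1 higher (Serpina1c, 0.91) in M8/M3, and none was called in F8/F3.

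The summed signal of the 10 genes was 8392 to 17110 in F3, 4088 to 6343 in M3, 1543 to 3426 in F8 and 1245 to 2392 in M8. That of the erythroid list was 44360 to 104300, 45100 to 94530, 33970 to 57730 and 35580 to 55340, and that of the proliferation list 12400 to 30510, 18520 to 29660, 1055 to 2598 and 834 to 2105. These sums weigh the brightest probe most and pool both scan days, although M3 was scanned on day 1 alone. The part of the erythroid, platelet and proliferation genes called lower with age in the result for the neutrophil genes was not tested.

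**Figure D4:**
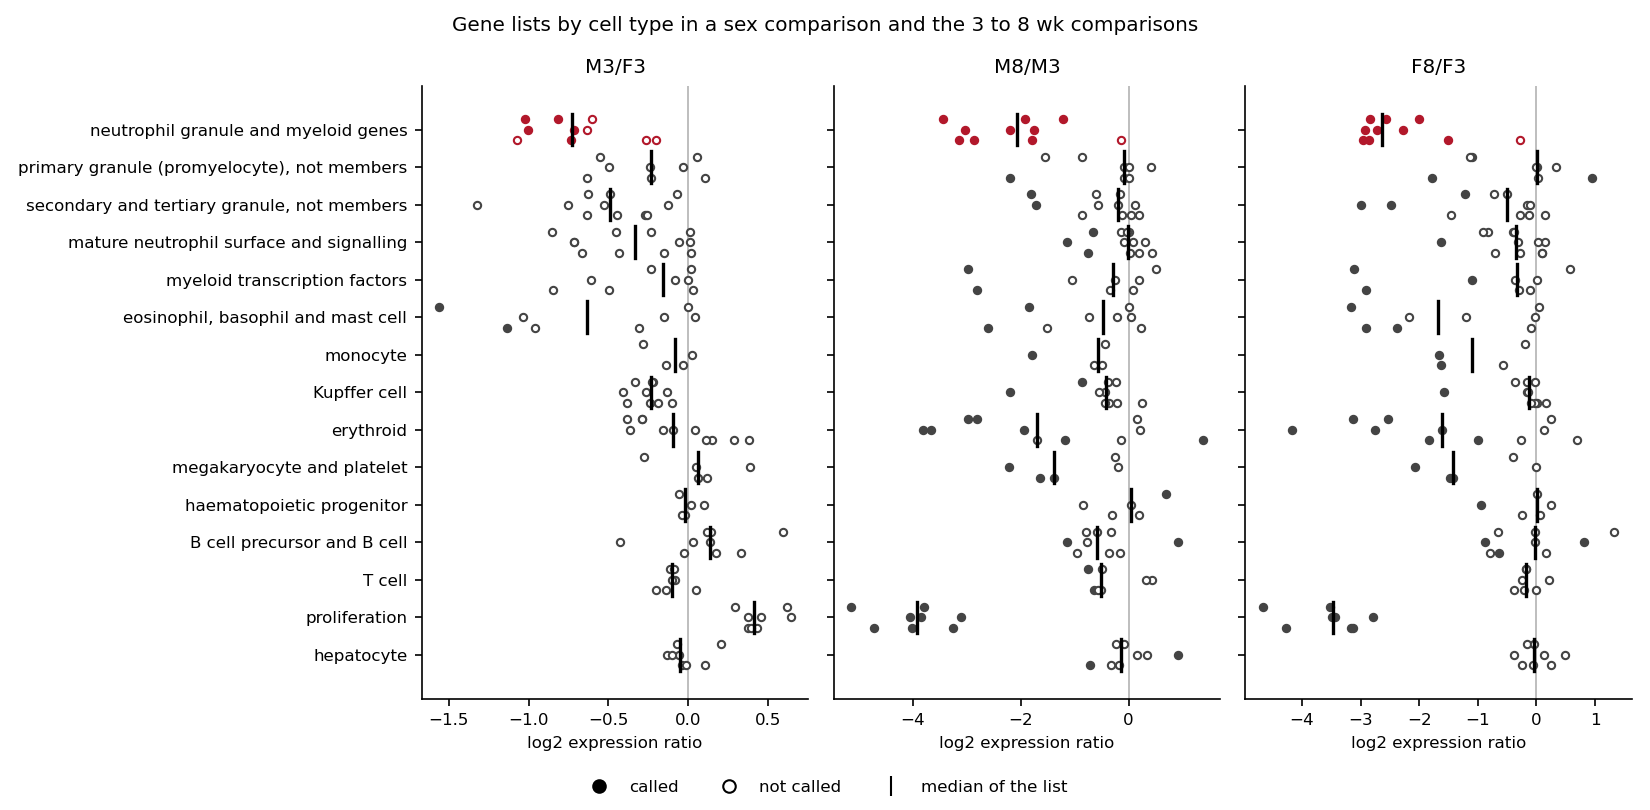
Log2 expression ratio (horizontal axis) of single genes in M3/F3, M8/M3 and F8/F3, by cell type list (vertical axis): filled points were called, open points were not, and vertical bars are list medians, with genes near background drawn at their ratios. The 10 neutrophil granule and myeloid genes (top) lie below 0 in all 3 panels, and the proliferation list is lowest with age and above 0 in M3/F3.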

How the data were processed

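Liver RNA pools were hybridized by the authors to 14 Agilent arrays. The deposited scanner files hold, for each spot, the log10 ratio of red over green with its log10 error, the processed intensity after background subtraction and dye normalization, and flags. They were made with Agilent Feature Extraction. The deposited series table held the same log10 ratios (largest difference 0). From the dyes in the labels, each ratio was turned to run male over female, or old over young, on the log2 scale. Outlier spots (0 to 10 per array) were left out. Genes were named through RefSeq accessions for 26,055 of 39,429 probes, and the brightest probe stood for a gene.

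All 14 arrays were fitted with limma 3.58.1 in R 4.3.3, with 1 coefficient per comparison and 1 dye term, and 276,003 p-values were adjusted together. Contrasts between comparisons were adjusted over all probes within each contrast. The Rosetta error model of the study was not used here. For a group with no array well above background, a bound was computed from intensities corrected with normexp (offset 50) and scaled across arrays. The dim group was set to no less than the lowest signal well above background. The adjusted p given with a bound comes from the limma fit of the deposited ratios and does not test the bound. Arrays of the same number were taken to share pools, since the difference between replicates in the sex by age contrast, taken from the age arrays and from the sex arrays, correlated at 0.913 (3 to 8 wk) and 0.904 (4 to 8 wk) over 20,451 probes. Arrays that share pools are not independent. The p-values rest on 1 spread per probe, taken from replicate differences over all 14 arrays, which holds pool and array variation together. Members and lists were chosen with earlier results of these data known. All 10 members were named, and from each other list the 3 called genes with the largest M8/M3 ratio. Some of these are not reported here. Other list genes were named after their values were seen. The 10 genes most like the primary granule mean were named by Pearson's r. Alternatives covered background correction, blocks, shared pools, group means, error weighting, thresholds, the dim filter and leaving out each array.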

Additional observations from a re-analysis of the deposited data

Results flagged for a closer look

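S100a8 was singled out because its change from 3 to 8 wk differed between the sexes by a direct test. M8/M3 minus F8/F3 was 0.72 on the log2 scale (limma, adjusted p = 0.0213), with -2.20 in male and -2.92 in female liver, and the difference lay above 0 for both replicate arrays. Over 26 alternative settings the value was 0.65 to 0.91 and was called in 21, with adjusted p up to 0.110. The call was lost without any 1 of the 4 arrays of M8/M3 and F8/F3 (values of 0.65 to 0.79), and with error-weighted averages.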

How the results depend on the processing

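The numbers of the 10 genes called in each comparison were recomputed under each alternative. With the slide as a block, 0 genes were called in M8/F8, 1 in M4/M3 through M8 and 0 in F4/F3 through F8. With shared pools in the covariance, 5 were called in F4/F3 through F8, where the calls over all probes rose from 24 to 158. With 6 group means, 5 were called in M4/F4, 3 and 1 had interactions from 3 and from 4 to 8 wk, and 7 were called both in M4/M3 and in F4/F3. Over all probes the called number also rose with 6 group means, from 319 to 470 in M4/F4, from 850 to 1963 and from 364 to 1228 for these interactions, from 61 to 585 in M4/M3 and from 24 to 355 in F4/F3. With error-weighted averages, 0 had the 3 to 8 wk interaction and 7 were called both in M4/M3 and in F4/F3. Over all probes the calls then rose from 61 to 287 in M4/M3 and from 24 to 245 in F4/F3. With normexp and loess, 0 were called in M8/F8, 3 in M8/M4 and 1 in M4/M3. With p adjusted within each comparison 1 was called in M3/F3, with no fold threshold 2 in M8/F8, and with no filter on dim probes 3 in M8/F8.

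Leaving out each array in turn gave 3 to 6 in M3/F3, 1 to 4 in M4/F4, 0 to 2 in M8/F8, 8 to 9 in M8/M3, 2 to 5 in M8/M4, 9 to 9 in F8/F3, 4 to 7 in F8/F4, 0 to 2 for the 3 to 8 wk interaction, 0 to 0 for the 4 to 8 wk interaction, 1 to 2 in M4/M3 and 0 to 2 in F4/F3. With the replicate block 5, 2 and 1 genes were called between the sexes at 3, 4 and 8 wk, 9 in each sex from 3 to 8 wk, and 5 in male and 6 in female liver from 4 to 8 wk. The block ended the call of Mpo in F8/F4 (adjusted p = 0.0590) and no other call of a gene in these comparisons. Of 700 single-gene values, over 8 other fits and each comparison without either of its own arrays, 651 kept their side of the threshold, 34 lost a call, 15 gained one and 0 reversed a call, while 5 values that were not called changed sign. These values leave out other thresholds and filters and arrays of other comparisons. The causes were not tested. Signal over background limits Ngp, Mpo, Ltf and Ctsg at 8 wk, and 2 arrays per comparison limit all values.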
